A study of Mus musculus with 6 samples.

Results

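The genes described here are 36 genes of mitosis, from cyclins and mitotic kinases to kinetochore, spindle and cytokinesis proteins, in mouse leukaemia cells in which Bcor was targeted with Cre. They were taken by name, with earlier results of these data known. For each gene the probe set with a single gene symbol and the highest mean over the arrays was used, which measured 35 of the 36 members among 19938 genes in all. Ccnb1, which encodes cyclin B1, was not analysed here because no probe set is listed with it.

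The cells were pre-B cells of the C57Bl/6 strain transformed with BCR-ABL1, the fusion kinase of Philadelphia chromosome positive acute lymphoblastic leukaemia. Every sample had the genotype Bcor fl/Y: the only copy of this X-linked corepressor gene was flanked by loxP sites. One group was transduced with PMIP-CRE-ERT2, which carries a Cre recombinase that tamoxifen switches on, and the control group with PMIP-ERT2, the vector without Cre. Both groups were given 4-hydroxytamoxifen at 0.5 micromolar for 2 days, and total RNA came from cells resistant to puromycin. Selection, tamoxifen and the floxed allele are thus shared by both groups, and Cre is the only difference that the labels name. The groups were transduced with separate vectors, and other differences between these populations were not tested. No sample combined Cre with a wild-type Bcor allele, so Cre activity and loss of Bcor cannot be told apart. Each group had 3 arrays. Whether these came from separate cultures or from 1 transformed line is not labelled. The p-values therefore set the group difference only against the spread between these arrays, and that spread may be technical.

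A cell that enters mitosis activates CDK1 with A- and B-type cyclins. It then condenses its chromosomes and attaches them to spindle microtubules through kinetochores, protein plates built on the centromere. The spindle checkpoint holds the anaphase-promoting complex (APC/C) inactive until all kinetochores are attached. Most genes of this programme are transcribed late in the cell cycle, when the MuvB complex with B-MYB and FOXM1 binds their promoters. Leukaemic pre-B cells divide quickly and express the programme strongly, and BCOR is best known as a partner of the repressor BCL6 and a subunit of a polycomb complex.

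The promoters are shown first because late cell cycle genes are known for a pair of short promoter elements. The elements are the CHR (letters TTTGAA or TTCGAA), which MuvB reads, and the CCAAT box (CCAAT), which NF-Y binds. Windows from 250 bases before to 50 after each annotated start were taken from RefSeq, build GRCm38.p6, and searched on both strands, with a place matched on both strands counted once. They were found for 31 of the 36 members, in 33 windows. A CHR was found in 75.8% of the member windows and in 19.2% of all 32851 windows. A CCAAT box was found in 75.8% and 37.4%. Both together were found in 66.7% of the member windows, which belong to 20 genes, and in 7.52% of all windows. The letters searched for E2F (TTTGGCGC or TTTCGCGC) were in 1 member window, that of Cdk1 (3.03%, against 0.813% of all windows). Those for BCL6 (TTCCTNGAA) were in 0 of the 33 member windows and in 1.59% of all. A match is a run of letters, not a shown binding site. Below are the last 130 bases before the annotated start, 5′ to 3′ on the gene's strand, of the 3 members that passed the test (Cenpv, Nek2 and Ndc80) and of 3 that did not, which are examples picked by hand from the members with both elements within the stretch (Ccnf, Espl1, Prc1, Top2a and Ube2c are others). Capitals mark the CHR and CCAAT letters in either orientation.
Cenpv: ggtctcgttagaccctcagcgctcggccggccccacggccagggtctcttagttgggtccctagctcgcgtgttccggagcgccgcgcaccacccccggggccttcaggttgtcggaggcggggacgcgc
Nek2: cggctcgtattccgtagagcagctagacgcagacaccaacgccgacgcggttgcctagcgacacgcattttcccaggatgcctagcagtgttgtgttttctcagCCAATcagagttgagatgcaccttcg
Ndc80: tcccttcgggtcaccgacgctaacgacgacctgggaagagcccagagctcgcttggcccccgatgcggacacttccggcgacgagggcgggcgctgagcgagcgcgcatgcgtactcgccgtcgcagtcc
Cdk1: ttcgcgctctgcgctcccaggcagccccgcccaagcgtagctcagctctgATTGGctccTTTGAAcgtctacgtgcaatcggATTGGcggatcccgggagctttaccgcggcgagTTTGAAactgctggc
Cdc20: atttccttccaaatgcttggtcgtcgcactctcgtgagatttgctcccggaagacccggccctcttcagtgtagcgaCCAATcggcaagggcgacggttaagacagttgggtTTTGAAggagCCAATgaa
Kif11: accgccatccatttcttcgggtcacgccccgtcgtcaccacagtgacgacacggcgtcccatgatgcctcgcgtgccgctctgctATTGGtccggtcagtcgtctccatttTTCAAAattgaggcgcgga

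The stretch of Cenpv is chr11:62539262-62539391 on the minus strand, and its window holds neither element. Nek2 lies at chr1:191821343-191821472 on the plus strand, with a CCAAT box 26 bases before the start, another 7 bases after it, and no CHR. Ndc80 lies at chr17:71526858-71526987 on the minus strand, with no CCAAT box and a CHR 29 bases after the start, outside the stretch shown. In Cdk1, at chr10:69352913-69353042 on the minus strand, CHR letters begin 71 and 15 bases before the start and CCAAT letters 80, 48 and 208 bases before it. In Cdc20, at chr4:118437344-118437473 on the minus strand, the CHR begins 18 bases and the CCAAT boxes 53 and 8 bases before the start. In Kif11, at chr19:37376252-37376381 on the plus strand, the CHR begins 19 and the CCAAT box 45 bases before it.

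Most of the mitotic programme lay close to its control level in the Cre-ERT2 cells. Of the 35 measured members 2 rose, 1 fell and 32 did not pass the test. The called members were Cenpv (2.16-fold higher), Nek2 (1.18-fold higher) and Ndc80 (1.23-fold lower). They make up 8.57% of the members, beside 7.03% of all genes called in either direction, 4.05% higher and 2.98% lower, so the share of members called is near that of all genes. Called means an adjusted p under 0.05 (limma, Benjamini-Hochberg over all 19938 genes, Cre-ERT2 minus ERT2). The median log2 fold change of the members was -0.03, and that of all genes was -0.04. In bulk RNA a change in the share of cells in mitosis and a change in RNA per mitotic cell cannot be told apart, and this holds for every mitotic gene below.

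**Figure D1:**
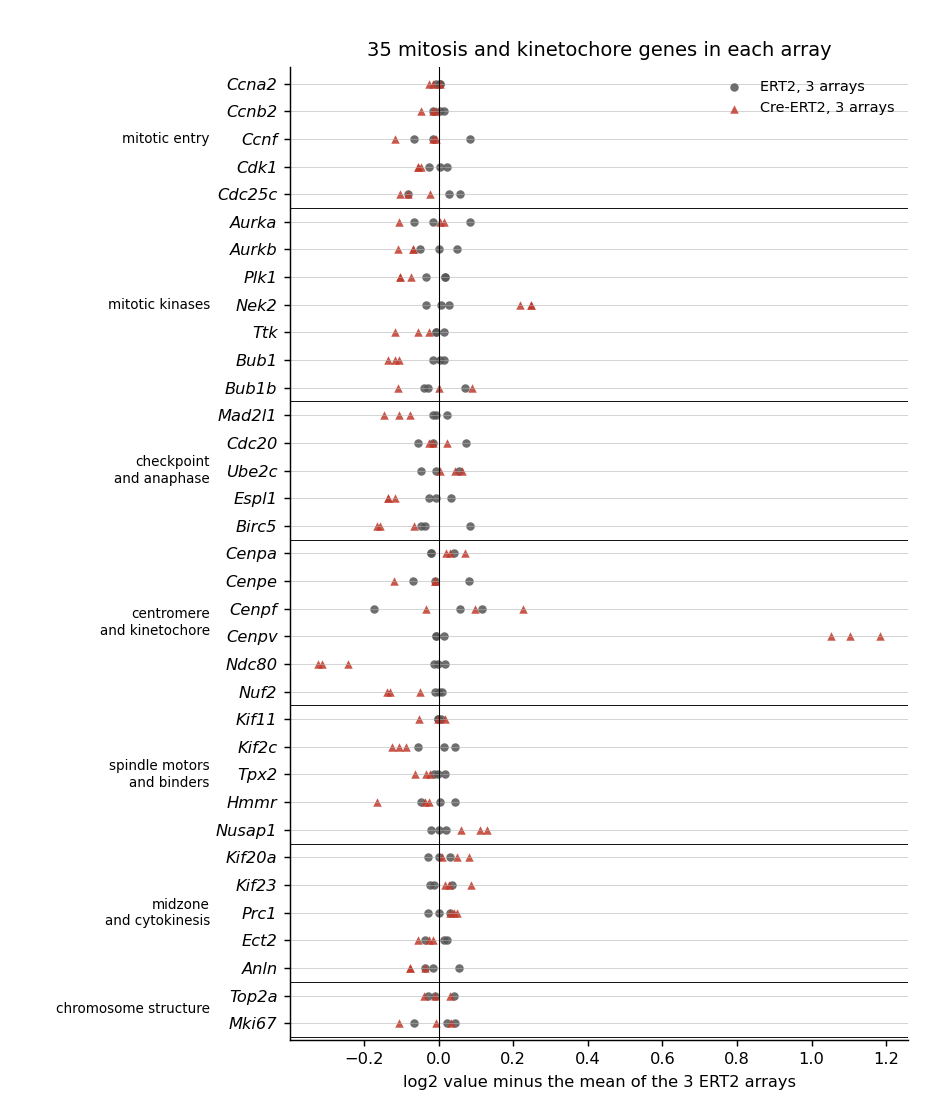
Each row is a member, grouped by role; points are the deposited log2 value in each array minus the mean of the 3 ERT2 arrays (grey circles ERT2, red triangles Cre-ERT2). Cenpv lies 1.11 above the control mean on average, Nek2 0.23 above and Ndc80 0.29 below (-0.29), while the means of the other 32 members lie within 0.13 of it.

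Bcor itself fell by 0.96 on the log2 scale (SE 0.0491, limma adjusted p = 2.11e-05), to 51.5% of the control level, with no overlap between the groups. Its 1 probe set may lie partly outside the deleted part, which was not tested. The remaining level therefore does not give the share of cells that lost Bcor. The median log2 value of an array was between 8.61 and 8.68 over all probe sets. Of 11 measured pre-B markers 4 were called (36.4%, beside 7.03% of all genes). Dntt rose by 0.86 on the log2 scale, and Rag2 (-0.71), Il7r (-0.60) and Rag1 (-0.38) fell, all 4 named after their values were seen. Igll1 (14.20 in ERT2 and 14.25 in Cre-ERT2) and Cd79b (13.52 and 13.62) had high values in both groups. Of 9 myeloid markers 2 rose (22.2%, beside 4.05% of all genes called higher). They were Lyz2 (9.76 and 10.21) and Fcgr1 (7.88 and 8.23, chosen after its values were seen), while Cd68 was at 9.41 and 9.46. The summed linear level of the myeloid list was 3154 to 3303 in the controls and 3530 to 3599 with Cre-ERT2, beside 75917 to 76735 and 73551 to 74834 for the pre-B list. Of 9 T and NK markers 1, Ncr1, fell (11.1%, beside 2.98% of all genes called lower). It was chosen after its values were seen, and Cd5 (9.33 and 9.38) and Cd3e (8.54 and 8.51) did not pass. Of 3 erythroid markers (Epor 8.51 in both groups, Klf1 8.19 and 8.21) and 6 stromal markers (Col1a1 9.66 and 9.57, Col1a2 9.18 and 9.07) 0 were called. An unadjusted p under 0.05 was found for 0 and 1 of them, beside 23% of all genes. The part of such cells in the values below was not tested.

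Among the 6 centromere and kinetochore genes, 1 rose, 1 fell and 4 did not pass (33.3% called, beside 7.03% of all genes). Cenpv encodes a centromere protein needed for chromosome alignment and cytokinesis. Its log2 level was 9.58, 9.56 and 9.56 in the controls (ERT2 replicates 1 to 3) and 10.75, 10.62 and 10.67 with Cre-ERT2. The lowest Cre-ERT2 array thus lay more than 1 log2 unit above the highest control array. The log2 fold change was 1.11 (SE 0.0429, 95% interval 1.02 to 1.21, limma adjusted p = 5.43e-06). Ndc80 encodes the subunit of the NDC80 complex that grips the microtubule. It was at 11.71, 11.74 and 11.72 in the controls and at 11.41, 11.40 and 11.48 with Cre-ERT2. Every Cre-ERT2 array thus lay below every control, as in 20.3% of all genes. Ndc80 fell by 0.29 (SE 0.0387, 95% interval -0.38 to -0.21, limma adjusted p = 0.00265), to 81.6% of the control level.

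The NDC80 complex has 3 other subunits, of which Nuf2 is a member and Spc24 and Spc25 came from the wider kinetochore list. Nuf2, the partner of NDC80 at the microtubule-binding end of the rod, was at 11.82, 11.83 and 11.81 against 11.77, 11.69 and 11.68. Spc24, at the end that faces the centromere, was at 9.98, 9.87 and 10 against 9.70, 9.66 and 9.73. Spc25, its partner there, was at 11.08, 11.02 and 11.05 against 11.00, 10.88 and 10.76. For all 4 subunits the Cre-ERT2 arrays lay below the ERT2 arrays, a separation in the lower direction that 20.3% of all genes showed. Spc24 fell by 0.25 (SE 0.0467, limma adjusted p = 0.0136), but it was not called on leaving out ERT2 replicate 1 (adjusted p = 0.0653), nor on leaving out Cre-ERT2 replicate 2 (0.0687). Nuf2 (-0.10, SE 0.0392, adjusted p = 0.166) and Spc25 (-0.17, SE 0.0604, adjusted p = 0.135) did not pass. The complex was singled out, and Spc25 named, after the values were seen.

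**Figure D2:**
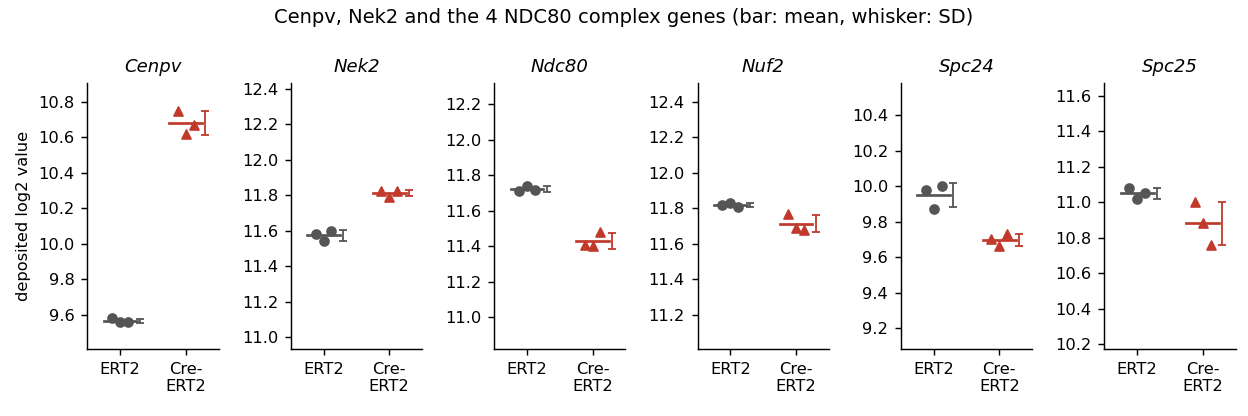
Deposited log2 values of Cenpv, Nek2 and the 4 NDC80 complex genes in 3 ERT2 arrays (grey circles) and 3 Cre-ERT2 arrays (red triangles); bars are means, whiskers 1 SD, and every panel spans the same log2 range. The groups do not overlap in any panel; Cenpv, Nek2, Ndc80 and Spc24 passed the test, and Nuf2 and Spc25 did not.

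The other kinetochore members showed no called change. Cenpa, the histone H3 variant that marks the centromere, was at 12.81, 12.81 and 12.87 in the controls and 12.86, 12.85 and 12.90 with Cre-ERT2, and the groups overlapped. Cenpe, a kinesin that carries chromosomes to the spindle equator, differed by -0.04 (95% interval -0.16 to 0.08). Cenpf, a large protein of the outer kinetochore, ranged from 10.90 to 11.19 in ERT2 and from 11.04 to 11.30 in Cre-ERT2. Its log2 fold change of 0.09 had the widest error of the members (SE 0.0871, 95% interval -0.11 to 0.29).

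The nearest measured genes on either side of Cenpv, on chromosome 11, were read in the order of the RefSeq gene table. Of these 8 genes 2 rose, beside 4.05% of all genes called higher, and a shared change of the region was not tested. Trpv2, a cation channel gene and the next measured gene on 1 side, was at 10.98, 10.84 and 11.08 in ERT2 and 11.35, 11.28 and 11.22 in Cre-ERT2. Its log2 fold change was 0.32 (SE 0.0659, limma adjusted p = 0.0230). Specc1, a cytospin gene and the fourth measured gene on the other side, rose by 0.30 (SE 0.0467, adjusted p = 0.00651). Between Specc1 and Cenpv, Zswim7 (-0.03), Ttc19 (0.07) and Pigl (-0.03) did not pass, and beyond Trpv2 neither did Snord49b (0.01), Snord49a (-0.07) and Lrrc75a (0.06). The Trpv2 call ended without replicate 1 or 2 of either group, at an adjusted p of up to 0.0828.

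**Figure D3:**
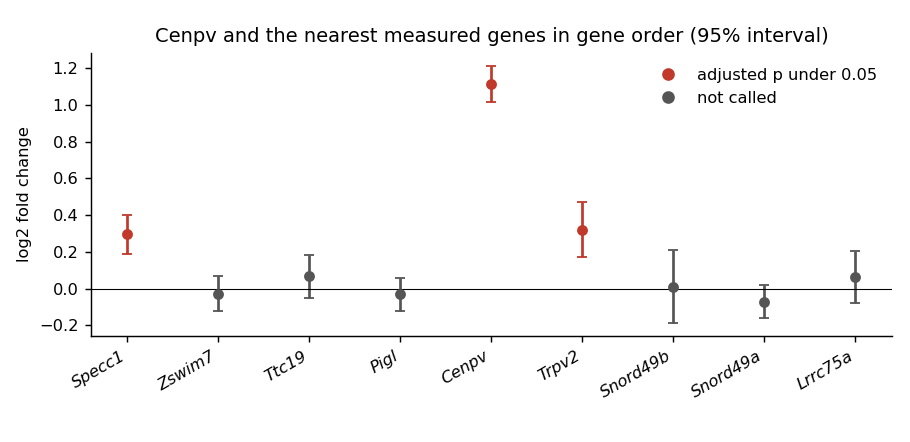
Log2 fold change (Cre-ERT2 minus ERT2, 3 arrays each, 95% interval) of Cenpv and the 4 nearest measured genes on each side, in gene order and not to scale of distance. Cenpv stands at 1.11; Specc1 (0.30) and Trpv2 (0.32) are called, and the gene next to Cenpv on the left, Pigl, is at -0.03.

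Of 7 mitotic kinase genes 1 rose and 6 did not pass (14.3% called, beside 7.03% of all genes). Nek2, which encodes a kinase that loosens the link between the centrosomes before the spindle forms, was at 11.58, 11.54 and 11.60 in the controls and 11.82, 11.79 and 11.82 with Cre-ERT2. All Cre-ERT2 arrays were above all controls. It rose by 0.23 (SE 0.0374, 95% interval 0.15 to 0.32, limma adjusted p = 0.00693). Bub1, a checkpoint kinase at the kinetochore, was at 13.07, 13.09 and 13.10 against 12.98, 12.95 and 12.97. These groups were apart, but the difference of -0.12 (SE 0.0356) had an adjusted p of 0.0851. It passed with an intensity trend in the test (0.0106), with array weights (0.0339) and without the dimmest 30% of genes (0.0445). Plk1, the kinase that drives many steps from mitotic entry to cytokinesis, was at -0.09 (adjusted p = 0.182). Aurkb, the kinase that corrects wrong attachments, was at -0.08 (0.270), and Ttk, which starts checkpoint signalling, at -0.07 (0.350). Aurka, the centrosome kinase that spindle assembly needs, was at -0.02 (0.809), and Bub1b, which encodes the checkpoint protein BUBR1, at -0.01 (0.940). In Plk1, Aurkb and Ttk the Cre-ERT2 arrays all lay below the controls, while in Aurka and Bub1b the groups overlapped. Over all genes 20.3% lay apart in the lower direction and 9.56% in the higher.

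Of the 5 checkpoint and anaphase genes 0 were called, beside 7.03% of all genes. Espl1 encodes separase, the protease that cuts cohesin. It was at 10.64, 10.66 and 10.70 in ERT2 and 10.55, 10.53 and 10.53 in Cre-ERT2. Its groups were apart, as were those of 20.3% of all genes in the lower direction. The log2 fold change of -0.13 (SE 0.0370, adjusted p = 0.0837) passed with array weights (0.0423) and without the dimmest 30% of genes (0.0441). Mad2l1, which encodes the checkpoint protein MAD2, was at 13.25, 13.28 and 13.24 against 13.15, 13.18 and 13.11. Its difference of -0.11 (adjusted p = 0.128) passed only with an intensity trend (0.0259) among the alternatives run. Birc5, or survivin, of the chromosomal passenger complex, was at 11.45, 11.46 and 11.58 against 11.43, 11.34 and 11.33 (-0.13, adjusted p = 0.162). The activator of the APC/C, Cdc20, was at -0.01 (95% interval -0.11 to 0.09), and its ubiquitin-conjugating enzyme Ube2c at 0.03 (adjusted p = 0.655). The other passenger subunits Incenp (-0.02) and Cdca8 (-0.01) and the checkpoint protein Bub3 (-0.03), chosen with their values known, did not pass either.

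Of the 5 measured genes of mitotic entry 0 were called, beside 7.03% of all genes. Ccna2 (cyclin A2) was at 13.63, 13.62 and 13.63 in ERT2 and 13.61, 13.63 and 13.60 in Cre-ERT2. Ccnb2 (cyclin B2) was at 13.48, 13.45 and 13.47 against 13.42, 13.46 and 13.45. In both genes the groups overlapped, at a log2 fold change of -0.01 (95% interval up to 0.07) and -0.02 (up to 0.06). Cdk1 was at 13.29, 13.34 and 13.32 against 13.26, 13.26 and 13.27, groups that lay apart by little (-0.05, adjusted p = 0.437), beside 20.3% of all genes apart and lower. Cdc25c, which encodes a phosphatase that activates CDK1, was at -0.07 (0.425). Ccnf, the F-box protein cyclin F, was at -0.04 (0.645).

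The spindle and cytokinesis genes did not pass in any of the 10 cases measured, beside 7.03% of all genes called. Nusap1, which binds and bundles microtubules around chromosomes, was at 12.67, 12.65 and 12.69 in ERT2 and 12.80, 12.78 and 12.73 in Cre-ERT2. It was the uncalled member with the largest positive difference (0.10, SE 0.0386, adjusted p = 0.165), and it passed with array weights (0.0422). Kif2c, a kinesin that takes microtubule ends apart at centromeres, was at 11.84, 11.91 and 11.94 against 11.77, 11.81 and 11.79 (-0.10, adjusted p = 0.171). Kif11, the motor that pushes spindle poles apart, was at 13.23, 13.24 and 13.23 against 13.23, 13.25 and 13.18 (-0.02, 95% interval -0.10 to 0.07). Hmmr was at -0.07 and the spindle assembly factor Tpx2 at -0.04. At the midzone and cleavage furrow, Kif20a (0.05), the centralspindlin motor Kif23 (0.04), the microtubule bundler Prc1 (0.04), the RhoA exchange factor Ect2 (-0.03) and the furrow scaffold Anln (-0.06) all had an adjusted p of at least 0.375.

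Both genes of chromosome structure stayed near their controls. Top2a, which untangles sister DNA, was at 13.14, 13.19 and 13.12 in ERT2 and 13.11, 13.18 and 13.14 in Cre-ERT2. Mki67, the proliferation marker that coats mitotic chromosomes, was at 13.45, 13.47 and 13.36 against 13.32, 13.42 and 13.46. Their log2 fold changes were 0.00 (95% interval up to 0.09) and -0.03 (95% interval -0.14 to 0.09), with overlap in both. Top2a has a second probe set, at 6.90, 7.37 and 6.49 against 7.18, 7.36 and 7.30, whose arrays scattered more widely (0.36, SE 0.179, unadjusted p = 0.0755).

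For the 32 uncalled members the 95% intervals, each for 1 gene alone, give the differences that these arrays allow. They rest on the spread between arrays, which may be technical, so they set no limit on a biological change. All but Cenpf had a 95% interval within 0.25 of 0 on the log2 scale, and the lowest bound of the 32, for Birc5, was -0.24, or 84.5% of the control level. The highest, for Cenpf, was 122% of it. The interval held 0 for 24 members, and of the other 8, which had an unadjusted p under 0.05, 7 were lower and 1 (Nusap1) higher. With the 3 called members this made 11 of 35 (31.4%) at an unadjusted p under 0.05, beside 23% of all genes. Over the 35 members 26 had a negative log2 fold change, as did 13592 of the 19938 genes. After cyclic loess between arrays 19 members were negative, with a median of -0.01, so the sign of the smallest differences rests on the scaling. The groups did not overlap for 17 members, 13 lower and 4 higher, beside 29.9% of all genes (20.3% lower and 9.56% higher).

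**Figure D4:**
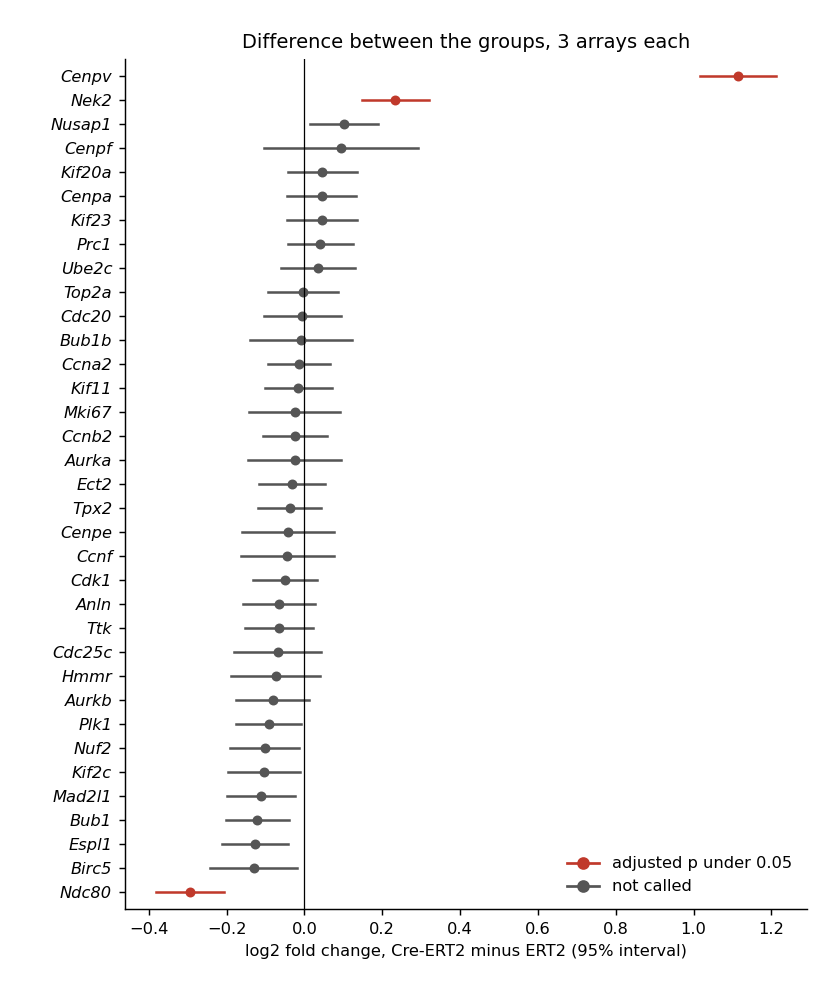
Log2 fold change of the 35 members (Cre-ERT2 minus ERT2, 3 arrays each) with its 95% interval from limma, in order of size; red marks an adjusted p under 0.05. Cenpv at 1.11, Nek2 at 0.23 and Ndc80 at -0.29 stand outside the other 32, whose estimates reach from -0.13 to 0.10.

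When the members were read by their promoter elements, 0 of the 20 with both a CHR and a CCAAT box were called by limma, beside 7.03% of all genes, a share at which few calls among 20 genes would be seen. Their log2 fold changes lay between -0.13 and 0.09. The 3 called members were spread over the other classes. Cenpv is 1 of 5 members whose windows hold neither element, with Birc5, Mad2l1, Nuf2 and Nusap1. Ndc80 is 1 of 3 with a CHR alone, with Anln and Kif2c, and Nek2 is 1 of 2 measured with a CCAAT box alone, with Cenpe. With so few calls the classes cannot be ranked, and the split, read after the values were known, was not tested.

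The rest of the mitotic machinery was read from a wider list of genes that are no members. Of 114 such genes 1 rose, 5 fell (beside 4.05% and 2.98% of all genes) and 108 did not pass. The gene that rose, Ckap4, encodes an endoplasmic reticulum protein and was counted in the cytokinesis list. The median log2 fold change of the 114 genes was -0.07. Of the inner kinetochore genes 1 of 16 fell (6.25%), Cenpk (-0.18, SE 0.0390, adjusted p = 0.0309). It was called in the full set and in the set without ERT2 replicate 3, and was not when any other single array was dropped (up to 0.128). Of the 24 outer kinetochore and checkpoint genes 1 fell (4.17%), Spc24. Of 15 genes of the APC/C and its regulators 2 fell (13.3%, beside 2.98% of all genes called lower). Fbxo5, which encodes the APC/C inhibitor EMI1, was at 12.28, 12.32 and 12.36 against 12.09, 12.06 and 12.14 (-0.22, SE 0.0405, adjusted p = 0.0134). The APC/C subunit Cdc16 fell by 0.20 (SE 0.0361, adjusted p = 0.0110). The calls of Fbxo5 and Cdc16 ended without Cre-ERT2 replicate 1 or 2, and that of Cdc16 also without ERT2 replicate 1 (up to 0.0707 and 0.0571).

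Of 13 genes of the cytokinesis list 1 fell and 1 rose (15.4% called, beside 7.03% of all genes). Pbk, a mitotic kinase gene, fell by 0.22 (SE 0.0403, adjusted p = 0.0127), a call that ended without Cre-ERT2 replicate 2 (0.0679). Ckap4 rose by 0.28 (SE 0.0480, adjusted p = 0.00936). It encodes a membrane protein of the endoplasmic reticulum that binds microtubules. In the condensin and cohesin list (16 genes), the kinesin and spindle list (20) and the list of entry regulators (10) 0 genes were called by limma. An unadjusted p under 0.05 was found for 6, 5 and 3 of them (37.5%, 25% and 30%), beside 23% of all genes. Their members of smallest p were the condensin subunit Ncapg (-0.14, adjusted p = 0.0650), the microtubule-binding p53 regulator Gtse1 (-0.16, 0.0643) and the lamin Lmnb1 (-0.13, 0.0603).

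The 23 genes for MuvB, B-MYB, FOXM1, E2F and NF-Y proteins had a median of -0.06, and 20 of them did not pass. The other 3 fell (13%, beside 2.98% of all genes called lower). They were the repressor E2f7 (-0.19, SE 0.0417, adjusted p = 0.0302), E2f4, an E2F that represses with pocket proteins (-0.18, SE 0.0395, adjusted p = 0.0321), and the pocket protein p107, Rbl1 (-0.15, SE 0.0365, adjusted p = 0.0404). Dropping a single array undid these calls, whichever array it was for Rbl1 (adjusted p up to 0.163), for each array except Cre-ERT2 replicate 3 for E2f7 (up to 0.130) and for each except ERT2 replicate 2 for E2f4 (up to 0.124). Foxm1 was at 11.38, 11.32 and 11.42 against 11.27, 11.25 and 11.28 (-0.10, adjusted p = 0.177), and Mybl2, which encodes B-MYB, at -0.02 (0.880); both were picked with their values known.

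Of 34 genes of S phase and replication 6 fell (17.6%, beside 2.98% of all genes called lower), 0 rose and 28 did not pass, with a median of -0.13. The largest falls among the called genes were in the cyclin Ccne1 (-0.24, adjusted p = 0.0103), the DNA ligase Lig1 (-0.22, 0.0465) and the polymerase subunit Pold1 (-0.19, 0.0282), none of which kept its call with every array left out. For Ccne1 it ended without ERT2 replicate 1 or Cre-ERT2 replicate 2 (up to 0.0541), for Lig1 on dropping each array except Cre-ERT2 replicate 3 (up to 0.163), and for Pold1 each except ERT2 replicate 2 (up to 0.112). The medians of -0.03 for the members, -0.07 for the other mitosis genes and -0.13 for S phase genes stand beside -0.04 for all genes, and the differences between the lists were not tested.

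**Figure D5:**
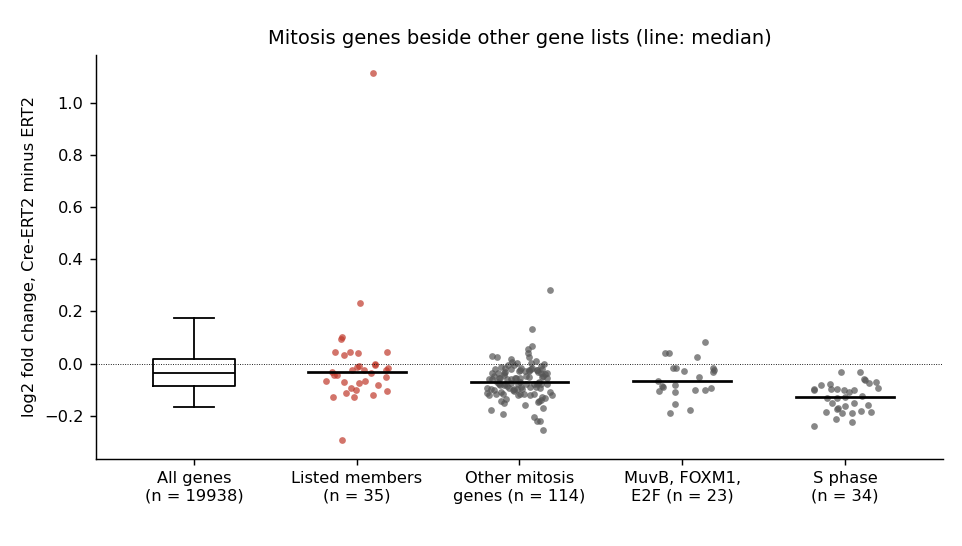
Log2 fold change (Cre-ERT2 minus ERT2) of all 19938 genes (box from the lower to the upper quartile, line at the median, whiskers at percentiles 5 and 95) and of each gene of 4 lists (points, spread sideways at random; line at the median). The members centre at -0.03 with Cenpv alone above 1, and the 34 S phase genes, with a median of -0.13, all lie below 0.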

How the data were processed

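Total RNA of 6 samples was read on whole-transcript mouse arrays. The authors deposited log2 expression values for 35556 probe sets. The submitters' processing notes list RMA and Partek 6.5, in roles not stated; background setting and genome build are not given in the sources used here. No probe-level data were used, so no probe set was called absent, and the number of arrays limits the precision. By the platform annotation 21789 probe sets had 1 gene symbol, 1621 several and 12146 none; 19856 of the 19938 gene identifiers matched RefSeq's GRCm38.p6. The test was limma's (version 3.58.1, under R 4.3.3), fitted with lmFit and eBayes without a trend to all 6 arrays, with Benjamini-Hochberg adjustment over all genes, after a check on simulated data. Tables and plots used the R package data.table (version 1.17.8), Python 3.11.15, pandas 2.3.3 and matplotlib 3.10.9. Errors are moderated standard errors (SE). The alternatives tried were array weights, an intensity trend, a block for the replicate number, quantile normalization, median centring, cyclic loess, leaving out the dimmest 30% of genes, the mean of probe sets, an adjusted p of 0.1 and each array left out.

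Members and lists were chosen with earlier results of these data known. The genes named are Bcor, all members, up to 3 called genes per wider list (or that of smallest p), the 2 markers of highest mean per marker list and the 4 measured neighbours on either side of a called member that changed by at least 0.5; others are marked.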

Additional observations from a re-analysis of the deposited data

How the results depend on the processing

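Cenpv, Nek2 and Ndc80 were called under each of the 14 alternatives to the fit, at an adjusted p of at most 7.25e-04, 0.0360 and 0.0216, and with each array left out the number of members called was 3. It was 5 with an intensity trend, 6 with array weights, 5 without the dimmest 30% of genes and 5 at an adjusted p under 0.1, where 9.14%, 16.7%, 12.5% and 11.4% of all genes were called. The members' median was -0.009 with array weights, -0.014 after quantile normalization and -0.007 after cyclic loess; the causes were not tested. With the replicate number as a block 3 members were called, with the median at -0.032. The samples share only a number: same-numbered arrays of the groups correlated at 0.05, -0.10 and -0.26 across genes in their deviations from the group means. Among the named genes that are no members, the block ended the calls of Cenpk, E2f4, E2f7, Rbl1, Pbk, Pold1 and Trpv2 (adjusted p from 0.0578 for Pbk to 0.0919 for Rbl1), cyclic loess those of Cenpk (0.0525), Lig1 (0.0548) and Rbl1 (0.0608), and quantile normalization that of Rbl1 (0.0536).

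Of the uncalled members 9 changed sign under at least 1 alternative, and 0 of these values were called. With array weights Aurka was at 0.015, Ccnf at 0.016, Cdc20 at 0.031, Kif11 at 0.001 and Top2a at 0.007. After quantile normalization Bub1b was at 0.011, Cdc20 at 0.010, Kif11 at 0.007 and Top2a at 0.025. After cyclic loess Bub1b was at 0.016, Ccna2 at 0.012, Ccnb2 at 0.002, Cdc20 at 0.019, Kif11 at 0.011, Mki67 at 0.001 and Top2a at 0.023. Aurka was at 0.000 there, with its sign unchanged before rounding. Median centring put Top2a at 0.001 and the mean of probe sets at 0.180. With single arrays left out Aurka ranged from -0.058 to 0.017, Bub1b from -0.055 to 0.043, Cdc20 from -0.032 to 0.029, Kif11 from -0.031 to 0.004, Mki67 from -0.059 to 0.015 and Top2a from -0.021 to 0.015.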

Other observations

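Cenpf varied more between arrays of 1 group than most genes. It had a residual SD of 0.143, above 96.3% of all genes, with ERT2 replicate 3 at 10.90 and the other ERT2 arrays at 11.13 and 11.19, and with Cre-ERT2 replicate 1 at 11.04 and the others at 11.17 and 11.30. Mki67 was lowest in the same array of each group, at 13.36 in ERT2 replicate 3 and 13.32 in Cre-ERT2 replicate 1. So was Cenpe, at 11.70 and 11.65. Birc5 was highest in these arrays, at 11.58 and 11.43. These genes were chosen after their values were seen, and the pattern was not tested.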
